A study of Mus musculus with 4 samples.

Results

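Pcp4, Mal, Lypd1, Lgi3, Bcas1, Slc1a1, Mt3, Car6, Abcb1a and Avil were the 10 genes examined, out of 27267 genes with records in the files. They were chosen because their read counts were very high in the hsa-miR-199a-3p library, so their ratios in that library are given as a description and support nothing. They had been grouped as neural-type genes, and most of them are known from nervous tissue or its coverings, whereas Car6 is best known from saliva and Abcb1a from barrier epithelium and vessels. The cultured cells were heart muscle cells (cardiomyocytes) taken on postnatal day 1 from mice of the CD1 stock. Cells were mock transfected (mock) or were given, with a lipid reagent, a mimic, a synthetic double-stranded copy of a microRNA, at 50 nM. The mimics were cel-miR-67, a nematode microRNA used as a control, and a pair of human microRNAs, hsa-miR-590-3p on the one hand and hsa-miR-199a-3p on the other. RNA was taken 72 h after transfection. There was 1 library per condition, so no test was possible and no difference below has a replicate check. The criterion for a difference was a ratio of at least 2 to mock and also to cel-miR-67, in the same direction.

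MicroRNAs pair with transcripts mainly through the seed, the bases near their 5′ end, and usually lower the level of the transcripts they pair with. In RefSeq (build GRCm38.p6) the mouse miR-199a-3p comes from a pair of loci, at chr1:162217883-162217904 on the plus strand and chr9:21496498-21496519 on the minus strand, and miR-199b-3p at chr2:32318524-32318545 on the plus strand has the same mature sequence. The sequence is shown because the mimic bears the name of its human counterpart, with bases 2 to 8, the seed, in capitals.
mmu-miR-199a-3p: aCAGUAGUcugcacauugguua
These 3 loci were the only ones whose mature product carried this seed among 1738 mature mouse entries. No mature sequence is printed for cel-miR-67 or hsa-miR-590-3p.

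The genes have different roles. Pcp4 encodes a small calmodulin-binding protein of cerebellar Purkinje cells that is also known from the conduction fibres of the heart. Mal is a proteolipid of myelin and of apical membranes, Bcas1 marks cells that form myelin, and Lgi3 is a secreted relative of the epilepsy protein Lgi1. Lypd1 is a membrane-anchored protein of the Ly6 family that modulates nicotinic acetylcholine receptors. Slc1a1 takes up glutamate in neurons and in kidney and gut epithelium, and Abcb1a is the drug efflux pump P-glycoprotein of the blood-brain barrier. Mt3 is the brain form of metallothionein, a zinc- and copper-binding protein, Car6 is the secreted carbonic anhydrase, and Avil (advillin) is an actin regulator known from sensory neurons.

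In the mock, cel-miR-67 and hsa-miR-590-3p libraries the 10 genes were weakly expressed, and in the hsa-miR-199a-3p library all of them were higher. Together they had 293 reads in mock, 273 under cel-miR-67, 411 under hsa-miR-590-3p and 4016 under hsa-miR-199a-3p. Pcp4 and Slc1a1 held 29.1% and 24.6% of the reads of the 10 genes under hsa-miR-199a-3p. The libraries held 31638930 (mock) to 38745528 (hsa-miR-199a-3p) reads on transcripts, and the reads of the 10 genes were 0.0104% of the latter. All 10 genes reached a mean of 1 CPM (the read count relative to the scaled size of its library) over the 4 libraries, the minimum for a comparison, but 3 of them (Lgi3, Slc1a1 and Mt3) would have reached it without the hsa-miR-199a-3p library. Since 7 passed through the library in which they were high, the count of 10 of 10 that lay at least 2-fold above both controls is fixed by the choice, and nothing is read from it. Among all 13502 genes compared, 324 (2.4%) met the criterion on the higher side in this library and 316 (2.34%) on the lower side, or 413 and 240 when libraries were scaled by total reads. Pcp4, Abcb1a, Lypd1, Car6 and Mal were at least 8-fold above both controls, and these were the 5 genes (0.037%) of all compared that were. None of these 5 would have reached the minimum without the hsa-miR-199a-3p library, so nothing is read from this count either.

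**Figure D1:**
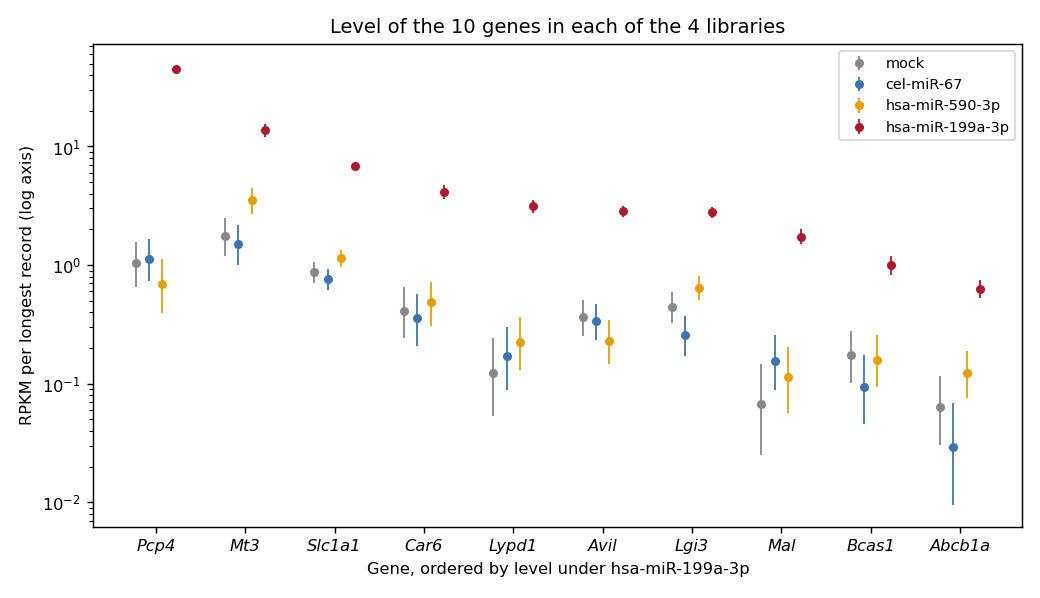
RPKM (reads relative to the length of the longest record and to the reads of the library, log axis) of the 10 genes in each of the 4 libraries, 1 point per library; bars are exact Poisson 95% intervals and cover counting error only. Pcp4 stood at 45.1 under hsa-miR-199a-3p and between 0.694 and 1.13 in the other libraries, and for each gene the hsa-miR-199a-3p point lies above the other 3.

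Pcp4 had 22 reads in mock, 26 under cel-miR-67, 16 under hsa-miR-590-3p and 1169 under hsa-miR-199a-3p. Every one of these reads was placed uniquely. Scaled to the libraries, the level under hsa-miR-199a-3p was 37.3-fold that under cel-miR-67, with a counting interval of 25.4 to 57.4, and 40.1-fold that in mock (26.4 to 64.2). These intervals are exact conditional binomial 95% intervals and cover counting error only, because there was 1 library per condition. Sequenced PCR copies are not independent molecules, so even the counting error may be larger than these intervals show. Pcp4 went from a level above 11.5% of the genes compared under cel-miR-67 to one above 87.5% of them, on the per-length scale. It ranked first of all genes compared by the ratio to cel-miR-67 and second by the ratio to mock.

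The genes of myelin and of glial or secreted signals had fewer reads. Mal had 6 reads in mock, 15 under cel-miR-67, 11 under hsa-miR-590-3p and 188 under hsa-miR-199a-3p, a ratio of 10.4 to cel-miR-67 (6.15 to 19.0) and of 23.6 to mock (10.7 to 65.2). The control libraries were themselves 2.27-fold apart for Mal, with an interval of 0.833 to 7.15 that includes 1. Bcas1 had 17, 10, 17 and 119 reads in the same order of libraries, 9.88-fold above cel-miR-67 (5.19 to 21.1) and 5.28-fold above mock (3.16 to 9.37). Lgi3 had 45, 28, 71 and 344 reads, 10.2-fold above cel-miR-67 (6.93 to 15.6) and 5.77-fold above mock (4.22 to 8.06). Of these 3 genes only Lgi3 had a control ratio whose interval excluded 1: cel-miR-67 stood at 0.565 of mock (0.340 to 0.926), so its ratio to cel-miR-67 was the larger of its ratios.

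The files list 2 transcript variants each for Mal and Bcas1. The longer Mal record, variant 1 with 2792 bases, had 4 reads in mock, 4 under cel-miR-67, 10 under hsa-miR-590-3p and 180 under hsa-miR-199a-3p, and the shorter, variant 2 with 2624 bases, had 2, 11, 1 and 8. How reads common to both variants were assigned is not stated, and only 20 of the 188 reads under hsa-miR-199a-3p were placed uniquely, all in variant 1. Counted on variant 1 alone, the log2 ratio of Mal to cel-miR-67 was 5.06 instead of 3.34. The Bcas1 records had 60 and 59 reads under hsa-miR-199a-3p and no uniquely placed read in any library, so their variants cannot be told apart.

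Of the proteins of the cell surface and of transport, Lypd1 had 8 reads in mock, 12 under cel-miR-67, 16 under hsa-miR-590-3p and 249 under hsa-miR-199a-3p. That was 17.2-fold above cel-miR-67 (9.69 to 33.8) and 23.5-fold above mock (11.7 to 55.0). Only 35.3% of its reads under hsa-miR-199a-3p were placed uniquely, and its uniquely placed reads were 4, 5, 5 and 88 in the same order of libraries. Lypd1 overlaps Gpr39, a zinc-sensing receptor gene, in the reference annotation, and without strand information reads of overlapping genes cannot be told apart. Gpr39 itself had 526, 660, 543 and 630 reads, a log2 ratio of -0.33 to cel-miR-67 and -0.15 to mock, which is below the controls where Lypd1 was above them.

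Slc1a1 was the best-covered of the transporters, with 102 reads in mock, 97 under cel-miR-67, 147 under hsa-miR-590-3p and 986 under hsa-miR-199a-3p, all placed uniquely. It was 8.44-fold above cel-miR-67 (6.85 to 10.5) and 7.29-fold above mock (5.94 to 9.03), and the controls did not differ beyond counting error (0.864, 0.648 to 1.15). Abcb1a, the lowest of the 10 genes per length under hsa-miR-199a-3p, had 10, 5, 21 and 122 reads. Its ratio of 20.3 to cel-miR-67 has an interval of 8.45 to 63.5, because it rests on 5 reads under cel-miR-67, and its ratio to mock was 9.21 (4.84 to 19.7). Its uniquely placed reads were 7, 4, 19 and 96, which show the same order of libraries. Rundc3b, which overlaps Abcb1a, had 12, 17, 28 and 42 reads and stayed below the minimum for a comparison.

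The remaining genes were Mt3, Car6 and Avil, all with uniquely placed reads only. Mt3 had 30 reads in mock, 28 under cel-miR-67, 65 under hsa-miR-590-3p and 285 under hsa-miR-199a-3p, 8.45-fold above cel-miR-67 (5.72 to 12.9) and 7.17-fold above mock (4.91 to 10.8). Car6 had 18, 17, 23 and 221 reads, 10.8-fold (6.59 to 18.9) and 9.26-fold (5.73 to 15.9). Avil had 35, 35, 24 and 333 reads, 7.90-fold (5.57 to 11.5) and 7.18-fold (5.06 to 10.5). For these 3 genes the control libraries lay within 1.18-fold of each other.

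Per length, the order under hsa-miR-199a-3p was Pcp4 (45.1 RPKM), Mt3 (13.7), Slc1a1 (6.86), Car6 (4.13), Lypd1 (3.14), Avil (2.83), Lgi3 (2.78), Mal (1.74), Bcas1 (0.994) and Abcb1a (0.633). Lypd1 (2.76 to 3.55), Avil (2.54 to 3.15) and Lgi3 (2.49 to 3.09) have overlapping counting intervals and cannot be ordered. In both control libraries Mt3 was the highest at 1.76 and 1.52 RPKM and Pcp4 was next at 1.04 and 1.13, with overlapping intervals, so these genes cannot be ordered there. Most of the 10 genes remained at a low level even where they were highest: Abcb1a exceeded 5.11% of the genes compared, Lypd1 25.1% and Car6 30.7%, beside 62.7% for Mt3.

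**Figure D2:**
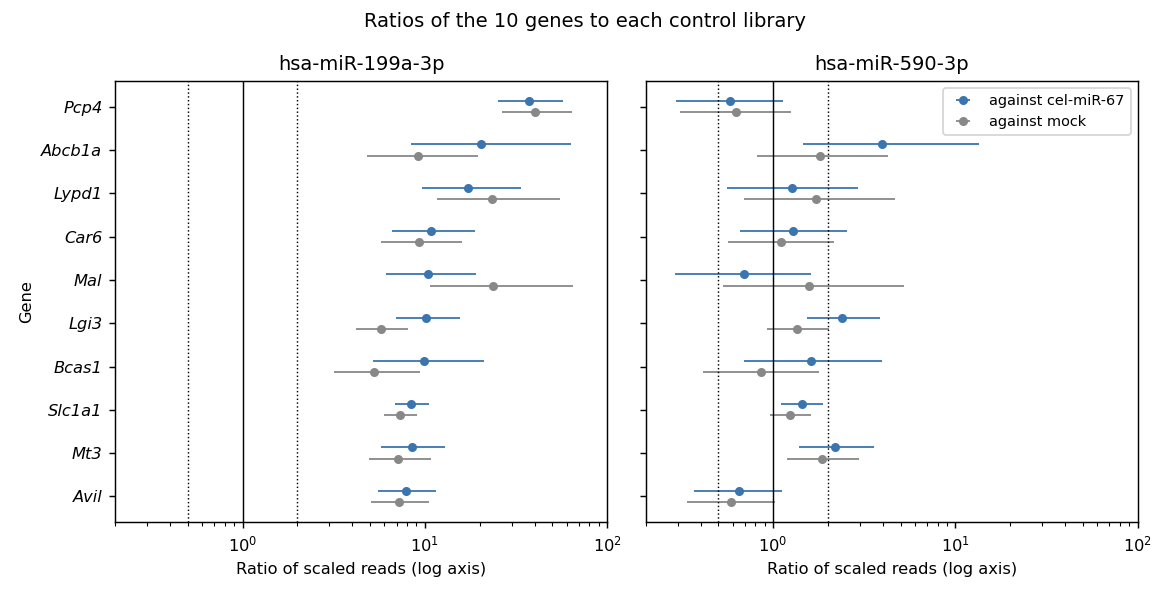
Ratio of scaled reads (log axis) of each of the 10 genes under hsa-miR-199a-3p (left) and hsa-miR-590-3p (right), against cel-miR-67 (blue) and mock (grey); bars are exact 95% counting intervals, the solid line marks 1 and the dotted lines 0.5 and 2. On the left all ratios lie between 5.28 and 40.1, and on the right between 0.582 and 3.97, on both sides of 1.

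Under hsa-miR-590-3p the same genes lay nearer to the controls than under hsa-miR-199a-3p, with more of them above the controls than below. Their median log2 ratios were 0.43 to cel-miR-67 and 0.37 to mock, beside -0.00 and -0.01 over all genes compared. None of the 10 lay at least 2-fold above both controls and none at least 2-fold below. Of all genes compared 0.356% and 0.23% did, so the 0 of 10 is not read as a result. By any fold, 6 of the 10 lay above both controls and 2 below both, where 35.6% and 36.6% of all genes did. These ratios share their control libraries with the ratios the genes were chosen on, so a low count in cel-miR-67 raises both.
Mt3 was the one gene whose hsa-miR-590-3p interval excluded 1 against both controls, 2.20-fold above cel-miR-67 (1.39 to 3.55) and 1.86-fold above mock (1.19 to 2.97). Lgi3 (2.40, 1.53 to 3.86), Slc1a1 (1.43, 1.10 to 1.87) and Abcb1a (3.97, 1.46 to 13.5) lay above cel-miR-67 with intervals above 1, but their intervals against mock included 1. Pcp4 and Avil lay below both controls, Pcp4 at 0.582 and 0.625 and Avil at 0.649 and 0.589, with all 4 intervals including 1. Set directly against hsa-miR-590-3p, all 10 genes were at least 2-fold higher under hsa-miR-199a-3p, where 1.87% of all genes were. The hsa-miR-199a-3p library chose the genes, so this is a description too. Pcp4 was 64.1-fold higher (39.3 to 113), Mal 15.0-fold and Lypd1 13.7-fold, and Mt3 had the smallest ratio, 3.85 (2.93 to 5.12).

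The controls themselves differed for some of these genes. Mal and Abcb1a, with 6 to 15 and 5 to 10 reads in the controls, were the 2 of 10 at least 2-fold apart between cel-miR-67 and mock, where 1.98% of all genes were. Bcas1 stood at 0.534 and Lgi3 at 0.565 of mock under cel-miR-67. The counting interval included 1 for 9 of the 10 genes, Mal, Abcb1a and Bcas1 among them, and excluded it for Lgi3. The median log2 ratio of cel-miR-67 to mock was -0.21 over the 10 genes and 0.00 over all genes. In bulk libraries such as these, a change in the number of cells that express a gene and a change in its RNA per cell cannot be told apart.

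**Figure D3:**
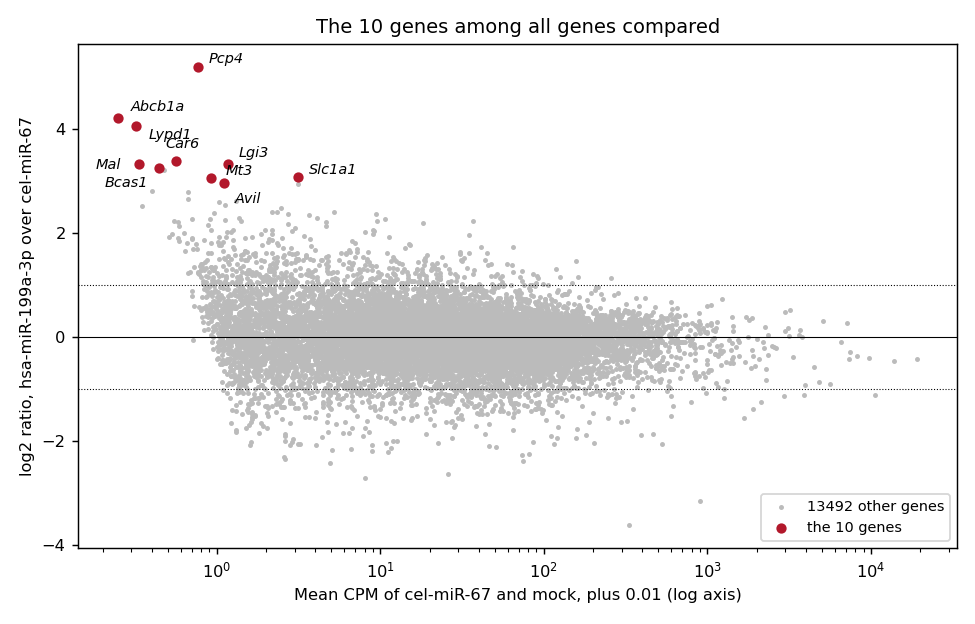
Log2 ratio of hsa-miR-199a-3p to cel-miR-67 against the mean level of both controls in CPM (log axis, 0.01 added) for all 13502 genes compared, the 10 genes in red; dotted lines mark 2-fold. The 10 genes lie at the upper left, where few reads stand in the controls, and the slanting left edge is set by the minimum of 1 CPM over the 4 libraries.

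By the ratio to cel-miR-67 the 10 genes held 10 of the first 11 ranks. Avil, the lowest of the 10 by this ratio, ranked at 11. By the ratio to mock Lgi3 ranked at 15 and Bcas1 at 20, and by the lower of both ratios 8 of the 10 were in the first 10. The genes were chosen on these values, so nothing is read from the ranks. The selection named no numeric limit. Non-members with high ratios and at least 50 reads included Stac2, an adaptor of voltage-gated calcium channels (2.79 to cel-miR-67 and 2.65 to mock), Amph, the synaptic vesicle protein amphiphysin (2.65 and 1.28), Fam188b2 (2.61 and 2.27) and Atp6v1c2, a subunit of the vacuolar proton pump (2.55 and 3.31). Of the reads of Fam188b2 and Atp6v1c2 under hsa-miR-199a-3p, each gene with 2 records, 2.12% and 5.09% were placed uniquely.

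Genes with a like pattern were sought by the Euclidean distance of 3 log2 ratios to cel-miR-67 (of hsa-miR-199a-3p, hsa-miR-590-3p and mock) from the median of the 10 genes, which was 3.33, 0.43 and 0.21. This rests on 4 libraries and is a description. The nearest non-members were Stac2 (distance 0.573), Dusp26, a phosphatase (0.862), Fam188b2 (0.875), Tenm4, a teneurin adhesion protein of neurons (0.985), and Grhl3, an epithelial transcription factor (1.05). Tenm4 had 114 reads in mock, 119 under cel-miR-67, 172 under hsa-miR-590-3p and 737 under hsa-miR-199a-3p. Among the 10 genes themselves Car6 lay nearest to the median (0.105) and Pcp4 farthest (2.24).

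Most measured relatives of the 10 genes did not meet the criterion. Of 78 relatives and partners in 9 families 44 were measured, and of these 4 lay at least 2-fold above both controls (9.09%), 0 below and 40 neither, beside 2.4% above and 2.34% below among all genes compared. The 4 were Gap43, a growth-cone protein with the calmodulin-binding motif of Pcp4 (log2 ratios of 1.43 and 2.01), Lgi2 (1.49 and 1.12), the receptor of Lgi proteins Adam23 (1.44 and 1.31, with 25.8% of reads placed uniquely) and Slc1a5, the neutral amino acid transporter (1.47 and 1.33). The median log2 ratio of the measured relatives was 0.25 to cel-miR-67 and 0.15 to mock, beside 0.00 and -0.01 over all genes compared. Gsn, gelsolin, a relative of Avil, stood at 0.97 and 0.91, and it passed 2-fold when libraries were scaled by total reads.

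Other close relatives did not meet the criterion. Pcp4l1, the nearest relative of Pcp4, had 2046 reads in mock, 1671 under cel-miR-67, 1443 under hsa-miR-590-3p and 3350 under hsa-miR-199a-3p, log2 ratios of 0.74 and 0.30. Abcb1b, the second P-glycoprotein gene of the mouse and the next gene to Abcb1a, had 180, 260, 254 and 371 reads, log2 ratios of 0.24 and 0.64. Among carbonic anhydrases 7 of the 15 other genes were measured and none met the criterion, beside 2.4% above and 2.34% below among all genes compared. The highest of them against cel-miR-67 was Car14, a membrane form (0.79 and 0.46). Of the other glutamate carriers, Slc1a3 of astrocytes stood at 0.40 and 0.08, and Slc1a2 had at most 39 reads in any library. Among the relatives of Mal, Plp2 (0.62 and 0.36) and Cmtm7 (0.94 and 0.61) were below 2-fold, and Lynx1, the relative of Lypd1 with most reads, stood at 0.23 and -0.04. Some relatives below the minimum for a comparison had most reads under hsa-miR-199a-3p, Lypd6b with 37 reads against 6 to 8 in the other libraries, Lgi4 with 17 against 2 to 9 and Cmtm8 with 49 against 14 to 24.

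Mt3 can be set beside Mt1 and Mt2, the metallothioneins of most tissues, which metals induce and which lie close to it on the chromosome. Mt1 had 754 reads in mock, 569 under cel-miR-67, 1029 under hsa-miR-590-3p and 843 under hsa-miR-199a-3p, log2 ratios of 0.30 and -0.25 for hsa-miR-199a-3p. Mt2, the next gene to Mt3, had 487, 248, 599 and 284 reads, log2 ratios of -0.07 and -1.18. Slc30a1, the zinc exporter that metals induce through the factor Mtf1, stood at -0.64 and -0.72 and Mtf1 at -0.36 and -0.49. The promoter windows are shown so that the letters can be compared, from 250 bases before to 50 after the gene start, on the plus strand of GRCm38.p6 as given by RefSeq, with every match to TGCNCNC, the core of the metal response element, on either strand in capitals. Mt3 is at chr8:94152357-94152656, Mt2 at chr8:94172368-94172667 and Mt1 at chr8:94178839-94179138.
Mt3: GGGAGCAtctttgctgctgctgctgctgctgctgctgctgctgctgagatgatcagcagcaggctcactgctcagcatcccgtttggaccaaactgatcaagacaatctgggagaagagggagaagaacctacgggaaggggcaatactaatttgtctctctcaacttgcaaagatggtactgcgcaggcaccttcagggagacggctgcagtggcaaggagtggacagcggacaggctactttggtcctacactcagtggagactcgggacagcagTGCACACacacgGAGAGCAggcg
Mt2: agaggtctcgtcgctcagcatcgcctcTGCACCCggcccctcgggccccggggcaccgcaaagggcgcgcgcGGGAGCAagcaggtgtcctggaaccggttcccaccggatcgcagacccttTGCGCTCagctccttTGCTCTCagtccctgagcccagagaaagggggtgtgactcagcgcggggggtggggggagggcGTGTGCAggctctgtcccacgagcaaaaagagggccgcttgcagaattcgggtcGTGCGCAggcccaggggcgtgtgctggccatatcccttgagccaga
Mt1: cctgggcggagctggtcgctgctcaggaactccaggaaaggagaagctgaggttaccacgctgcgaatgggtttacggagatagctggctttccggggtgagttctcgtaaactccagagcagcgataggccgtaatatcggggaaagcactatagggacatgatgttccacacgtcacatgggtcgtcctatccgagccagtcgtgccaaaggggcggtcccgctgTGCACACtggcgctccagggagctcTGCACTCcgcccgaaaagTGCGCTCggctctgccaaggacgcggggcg
Mt3 has 3 matches, Mt2 6 and Mt1 3, and 51.0% of all 32851 promoter windows hold at least 1. Windows of the other genes differed in base composition. The window of Pcp4 at chr16:96467356-96467655 on the plus strand is shown because Pcp4 had the highest ratio, with its CCAAT match (read on the minus strand) in capitals.
Pcp4: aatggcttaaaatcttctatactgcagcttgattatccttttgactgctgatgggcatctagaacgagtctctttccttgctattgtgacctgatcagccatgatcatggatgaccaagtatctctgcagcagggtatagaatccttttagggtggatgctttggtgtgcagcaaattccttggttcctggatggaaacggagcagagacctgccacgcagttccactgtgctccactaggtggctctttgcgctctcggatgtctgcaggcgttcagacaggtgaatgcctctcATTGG
CCAAT was found in windows of 4 of the 8 genes with an entry (Pcp4, Avil, Car6 and Lypd1) and in 37.4% of all windows. The windows of Abcb1a and Avil had 40.3% and 43.0% G and C, that of Slc1a1 70.3%, and the median of all windows was 52.7%. None of the 8 held TATAAA (13.6% of all windows), TGACGT (7.51%) or TGANTCA (7.81%). CANNTG was found for 4 genes (72.3% of all windows), GGGCGG for 3 (35.7%) and ACGTG for 2 (19.6%). The complement of the miR-199a-3p seed, ACTACTG, was found in 1 of the 3 windows of Lypd1 and in 2.52% of all windows. That Lypd1 window as given reads CAGTAGT, the letters of the seed itself, and ACTACTG lies on its other strand. No pairing with the transcript is read from it. Motifs were searched on both strands, matches may overlap, and a match in these letters is a description only.

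The genes next to the 10 were compared as well. Of the 20 nearest measured genes on either side in the order of the GRCm38.p6 annotation, 0 met the criterion in either direction. Among all genes compared 2.4% met it on the higher side and 2.34% on the lower, so 0 of 20 is not read as a result. Log2 ratios of these neighbours to cel-miR-67 ran from -0.58 to 0.99 with a median of 0.10. The highest was an unnamed gene model next to Slc1a1 with 101, 111, 116 and 266 reads, just short of 2-fold against both controls (0.99 and 0.99). Sh3bgr, the neighbour of Pcp4 and abundant in heart, had 13531, 14215, 12483 and 18186 reads, log2 ratios of 0.09 and 0.02.

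**Figure D4:**
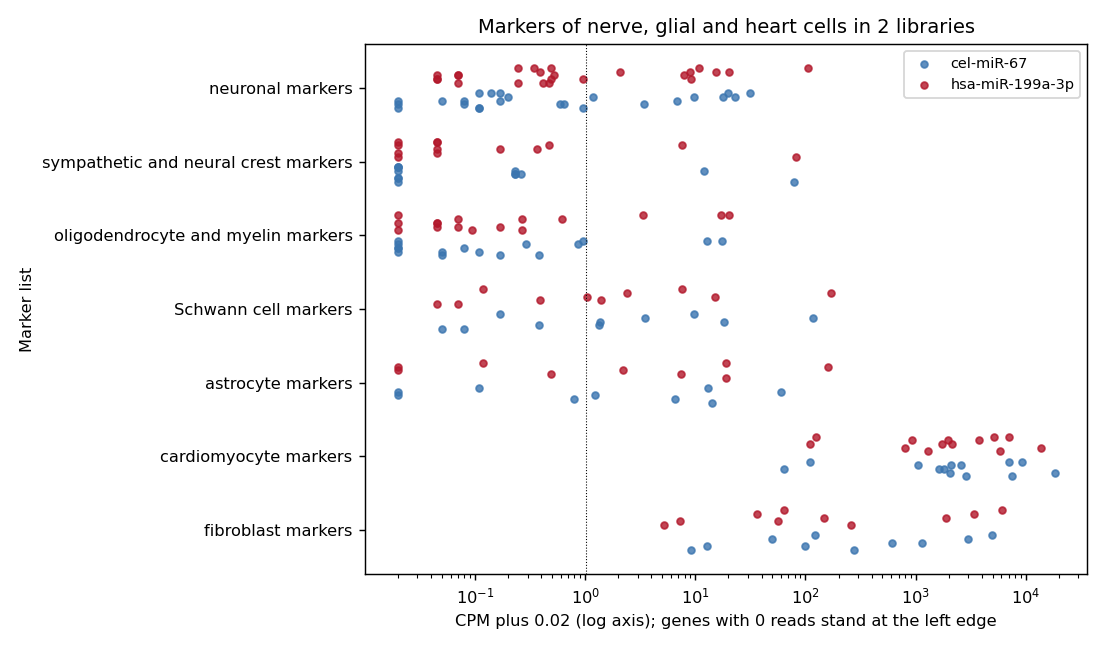
Levels (CPM plus 0.02, log axis) of markers of nerve, glial and heart cells under cel-miR-67 (blue) and hsa-miR-199a-3p (red), 1 point per gene; the dotted line marks 1 CPM and genes without reads stand at the left edge. Cardiomyocyte markers lie above 50 CPM in both libraries, and most nerve and glial markers lie below 1 CPM.

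The label of neural-type genes was checked against markers of nerve and glial cells, and several that define such cells were at or near 0, while others were read in all libraries. Rbfox3, the neuronal nuclear protein NeuN, had 1 or 2 reads in each library, Snap25 of synaptic terminals 0 to 2 and Stmn2 of growing neurons 0 or 1. Sox10, the transcription factor of Schwann cells and oligodendrocytes, and Olig2 had 0 reads in all 4 libraries, and the myelin genes Mag and Mog had at most 3. Gfap of astrocytes had 1 to 4. These were named after their values were seen, and other markers of the same lists had many reads in each library: Mbp, a myelin protein, 583 to 847, Map2 of dendrites 361 to 640, Dbh of noradrenaline synthesis 231 to 397 and Erbb3, a neuregulin receptor of Schwann cells, 241 to 352. None of these 4 met the criterion under hsa-miR-199a-3p. Of 72 distinct markers in 5 lists (neurons, sympathetic and neural crest cells, oligodendrocytes, Schwann cells, astrocytes), 42 had fewer than 20 reads in every library and 24 reached the minimum for a comparison. Under hsa-miR-199a-3p 4 of the 24 (16.7%) met the criterion on the higher side, 0 on the lower side and 20 neither, beside 2.4% and 2.34% of all genes compared, with median log2 ratios of 0.21 and 0.11.

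The summed level of the neuronal markers was 145 CPM in mock, 116 under cel-miR-67, 129 under hsa-miR-590-3p and 184 under hsa-miR-199a-3p. Uchl1 made up 105 CPM of the latter, and without it the sums were 93.8, 84.4, 87.4 and 79.2 CPM, lowest under hsa-miR-199a-3p. That of the astrocyte markers was 90.7, 95.7, 112 and 207 CPM, and 31.8, 35.9, 31.4 and 48.0 CPM without Aqp4. It was 38.2, 32.9, 40.3 and 42.0 CPM for the oligodendrocyte markers and 82.2, 91.2, 79.9 and 90.9 CPM for the sympathetic and neural crest markers. Without Mbp the oligodendrocyte sums were 16.06, 15.43, 16.38 and 21.98 CPM, highest under hsa-miR-199a-3p, as for the astrocyte markers without Aqp4. These sums still rest mostly on few genes. For the oligodendrocyte list this was Cnp, with 400, 424, 477 and 692 reads, 2.75% of the latter placed uniquely. For the astrocyte list these were Aldoc, with 155, 436, 155 and 770 reads, and Slc1a3, with 540, 477, 650 and 757. Without Hand2 the sympathetic and neural crest sums were 8.326, 12.74, 7.751 and 8.641 CPM. The Schwann cell markers summed to 144, 152 and 167 CPM in mock, cel-miR-67 and hsa-miR-590-3p and were higher than these under hsa-miR-199a-3p, but without Pmp22 the sums were 30.8, 34.6, 29.7 and 28.0 CPM, again lowest under hsa-miR-199a-3p. The neurofilament genes, below the minimum for a comparison, had most reads under hsa-miR-199a-3p, Nefl 16 against 0 to 6 in the other libraries, Nefm 19 against 1 to 5 and Nefh 15 against 3 to 6. The part of any nerve or glial cells in the levels of the 10 genes was not tested.

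The 4 genes past the criterion were Uchl1, Aqp4, Gpr37 and Gap43. Uchl1, a ubiquitin hydrolase abundant in neurons, had 1562 reads in mock, 1054 under cel-miR-67, 1477 under hsa-miR-590-3p and 4222 under hsa-miR-199a-3p, log2 ratios of 1.73 and 1.03. Aqp4, the water channel of astrocytes and muscle, had 1792, 1999, 2865 and 6389 reads (1.41 and 1.43). Gpr37, a receptor of myelin-forming cells, had 27, 31, 45 and 133 reads (1.82 and 1.88), and Gap43 is given above. The other measured neuronal genes did not meet the criterion. Syn1 stood above both controls, with 42, 39, 42 and 83 reads (0.81 and 0.57). Of its reads under hsa-miR-199a-3p 7.23% were placed uniquely. Eno2, neuronal enolase, had 502, 326, 359 and 621 reads (0.66 and -0.10) and Slc17a7, a vesicular glutamate transporter, 529, 226, 364 and 317 (0.22 and -1.14), so the control libraries lay on either side of them. Tubb3, neuronal tubulin, had 640, 657, 495 and 438 reads (-0.85 and -0.95). Dlg4, a synaptic scaffold, had 614, 762, 968 and 813 (-0.17 and -0.00), of which 3.94% under hsa-miR-199a-3p were placed uniquely.

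Genes held down outside neurons by the repressor REST were examined as another neural set. Of 27 listed 8 were measured and 0 met the criterion in either direction, beside 2.4% higher and 2.34% lower among all genes compared. At such shares lists of this size may well hold none, so nothing is read from the counts in this paragraph. The median log2 ratios of the 8 were -0.17 and 0.09. Vgf, a neuropeptide precursor, had the highest ratio to cel-miR-67 of these 8, 1.34, with 0.52 to mock. Rest had 1398, 1658, 1924 and 1423 reads (-0.49 and -0.38), and 0 of the 10 genes of REST and its corepressors met the criterion. Among genes of the heart's conduction system, where Pcp4 is also known, 18 of 21 were measured, 0 were higher by the criterion and 1, Sema3a, was lower (-1.02 and -1.15).

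Markers of the cells a heart culture holds were compared for the same library, where 2.4% of all genes compared met the criterion on the higher side and 2.34% on the lower. Of 13 cardiomyocyte markers 0 met the criterion on the higher side and 2 on the lower, Ryr2, the calcium release channel (-1.38 and -1.14), and Ttn, titin (-1.13 and -1.25). Their summed level was 63707 CPM in mock, 56294 under cel-miR-67, 44179 under hsa-miR-590-3p and 44608 under hsa-miR-199a-3p. Of 10 fibroblast markers Postn (-2.05 and -1.61) and of 8 measured smooth muscle and pericyte markers Rgs5 (-1.12 and -1.14) were lower, and no gene of either list met the criterion on the higher side. Of the reads of Ttn, Postn and Sema3a under hsa-miR-199a-3p, 2.41%, 2.10% and 3.55% were placed uniquely. None of 10 endothelial, 10 epicardial and 4 measured macrophage markers met the criterion. Of 3 measured epithelial markers Grhl2, a transcription factor, was higher, with 20, 16, 36 and 92 reads (2.22 and 1.77), while the epithelial adhesion genes Epcam and Cdh1 had 0 to 4 reads in each library. Grhl2 would not have reached the minimum for a comparison without the hsa-miR-199a-3p library, so nothing is read from its meeting the criterion. The part of these shifts in the levels of the 10 genes was not tested.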

How the data were processed

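RNA was sequenced from 4 libraries, 1 per condition, grouped by the treatment in the labels. Per the file headers, the authors deposited a total count and a uniquely placed count of reads, and an RPKM, for each of 36065 RefSeq transcript records; RPKM is the total relative to record length and library, and the total includes reads not placed uniquely. CASAVA 1.8 and mm8 are named without a role, per the submitters' processing notes. Which program mapped the reads was not given in the sources used here, nor was the use of strand.

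Gene symbols came from a GRCm38.p6 table by accession (27926 records, 77.4%) or from the headers, and reads were summed per gene. Libraries were scaled by TMM (edgeR 4.0.16, R 4.3.3; used for factors only), log2 ratios took a prior count of 0.5, and folds with intervals took none. With 0 residual degrees of freedom no test was made. The procedure was tested on simulated data, in which the changed genes had higher control levels than the 10 genes. That test therefore does not cover their low counts. Total reads, DESeq2 1.42.0 size factors, unique reads, RPKM (0.01 added), a prior of 2, other filters, the record with most reads, a 4-fold criterion and the mean of both controls were alternatives. Named were the 10 genes, per list and family up to 4 genes past the criterion and the most abundant one, relatives, neighbours, and the 5 non-members with the highest ratio and the 5 with the nearest pattern; gene models without an approved symbol were not named, and some genes are not reported here. Markers at low counts, Mbp, Map2, Dbh, Erbb3, Syn1, Eno2, Slc17a7, Tubb3, Dlg4, Cnp, Aldoc, Vgf, Rest, Slc30a1 and Mtf1 were named after their values were seen. The genes and lists were chosen with earlier results of these data known. Calculations used Python 3.11.15 with scipy 1.17.1.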

Additional observations from a re-analysis of the deposited data

How the results depend on the processing

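The ratios of the 10 genes were recomputed under each alternative. Of 204 such ratios, 202 stayed within their counting interval, and all 136 for hsa-miR-199a-3p remained at least 2-fold, the lowest log2 ratio being 2.29. The genes were chosen as high in that library, so the 136 are a description and support nothing. With the record with most reads in place of summed records, Mal under hsa-miR-199a-3p was 5.06 against cel-miR-67. Its ratio under hsa-miR-590-3p turned from -0.51 to 1.15, on 10 against 4 reads.

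With a mean of at least 5 CPM only Pcp4 and Slc1a1 remained, so 2 genes were at least 2-fold above both controls and 2 above hsa-miR-590-3p. With uniquely placed reads 7 genes passed the filter, without Mal, Lypd1 and Bcas1, most of whose reads were not placed uniquely. All 7 met the criterion under hsa-miR-199a-3p, a count that is fixed by the choice of the genes and from which nothing is read. Under hsa-miR-590-3p the count of 0 became 1 with uniquely placed reads, 1 with the record with most reads and 2 against the mean of both controls. The count of 2 genes that differed 2-fold between the controls became 0 with uniquely placed reads, with a prior count of 2, with at least 5 CPM and with a 4-fold criterion, and 1 with the authors' RPKM or the record with most reads. Over all genes, 324 higher and 316 lower became 1631 and 1023 without a filter and 27 and 14 with a 4-fold criterion, and 167 were higher at 5 CPM.

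Scaling by total reads moved the median log2 ratio of all genes to 0.09 against cel-miR-67 and 0.10 against mock, and the higher share of genes past the criterion from 50.6% to 63.2%. That share was 63.3% by RPKM and 61.5% when no filter was used. The 4 nerve and glial markers past the criterion were the same 4 genes under every scaling tried, and Aldh1l1 joined them with uniquely placed reads. Among relatives Gsn joined under total-read scaling and RPKM, and with uniquely placed reads Cmtm8 joined and Adam23 was lost. The sums of each marker list without its most abundant gene were added after the data were seen.

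No paired analysis was possible because each condition had 1 library, and no replicate was there to leave out. In the controls 1 read was worth 0.0329 (mock) and 0.0299 CPM (cel-miR-67), so ratios that rest on 5 to 15 control reads are the least precise. These were the ratios of Abcb1a, Mal and Lypd1 to both controls and of Bcas1 to cel-miR-67.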
